A study of Mus musculus with 20 samples.

Results

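The nuclear genes of the mitochondrial respiratory chain and ATP synthase were followed in fetal mouse hearts over control and 3 doses of 2,3,7,8-tetrachlorodibenzo-p-dioxin (TCDD), a chlorinated pollutant that acts through the aryl hydrocarbon receptor (AhR). Members were taken by gene symbol: every probe set annotated with a single symbol of the Ndufa, Ndufb, Ndufc, Ndufs or Ndufv series, Sdha to Sdhd, the Uqcr, Atp5 and Cox4 to Cox8 series, Cyc1 or Cycs, without assembly factors. This gave 97 probe sets for 71 genes, out of 12422 probe sets on the array and 10833 with 1 symbol. Of these, 79 probe sets for 66 genes passed the filter on dim signals. Complex I held 30 kept probe sets, complex II 4, complex III 9, complex IV 17 and complex V 18, and the carrier cytochrome c had 1. The rule uses names only and no measured value.

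RNA of whole hearts collected on gestation day 17.5 had been hybridised to 20 Affymetrix MG-U74Av2 arrays. The control group of 8 arrays received the vehicle, corn oil, by oral gavage on day 14.5, and 4 arrays each belonged to 1.5, 3 and 6 µg/kg TCDD. For 1 array at 1.5 µg/kg the treatment day is written in a form that was not used, and the other 19 give day 14.5. The labels name no genotype, strain or sex, and leave unstated if the RNA of each array came from a single heart, several hearts or a litter, so p-values measure the spread between arrays only. In whole hearts, fewer cells of a type and less RNA per cell cannot be told apart.

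The respiratory chain passes electrons from NADH (complex I) and succinate (complex II) through ubiquinol, complex III and cytochrome c to oxygen at complex IV, and complex V turns the resulting proton gradient into ATP. Most of its subunits are nuclear-encoded and imported, and heart muscle, which depends on oxidative metabolism, expresses them abundantly. Several complex IV subunits have a heart and muscle form and a ubiquitous form, and the heart forms replace the others around birth. Known regulators of these genes are NRF1, GABP, YY1 and the oestrogen-related receptors, with the coactivators of the PGC-1 family.

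Promoter sequences are shown for a few members because the regulators named above act there. RefSeq (GRCm38.p6) gave 62 windows for 57 of the 71 member genes, each from 250 bases before to 50 after the start of the gene. The letters searched on both strands were GCATGCGC for NRF1, CCGGAAG for GABP and other ETS factors, AAGATGGC for YY1, TCAAGGTCA for the oestrogen-related receptors, GGGGCGGGG for SP1 and TNGCGTG for AhR. No motif of this list is contained in another. Below are the 200 bases before the start of Cycs (chr6:50566570-50566769, minus strand), the ubiquitous Cox6a1 (chr5:115348959-115349158, minus strand) and Atp5k (chr5:108434400-108434599, minus strand), then the heart forms Cox7a1 (chr7:30183971-30184170, plus strand) and Cox8b (chr7:140900447-140900646, minus strand), 5′ to 3′ on the gene's strand. Capitals mark any of the letters searched.
Cycs: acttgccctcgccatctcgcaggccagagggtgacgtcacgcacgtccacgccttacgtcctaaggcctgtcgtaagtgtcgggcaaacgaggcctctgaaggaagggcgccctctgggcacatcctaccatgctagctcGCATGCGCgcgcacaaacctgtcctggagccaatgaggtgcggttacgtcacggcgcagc
Cox6a1: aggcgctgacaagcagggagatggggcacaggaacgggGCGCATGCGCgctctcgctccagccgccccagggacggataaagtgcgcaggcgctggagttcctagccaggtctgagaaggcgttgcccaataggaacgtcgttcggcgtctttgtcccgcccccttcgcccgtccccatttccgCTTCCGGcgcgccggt
Atp5k: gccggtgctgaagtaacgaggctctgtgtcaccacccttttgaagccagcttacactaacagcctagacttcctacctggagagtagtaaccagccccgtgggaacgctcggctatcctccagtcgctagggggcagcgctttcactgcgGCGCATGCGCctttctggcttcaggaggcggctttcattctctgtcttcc
Cox7a1: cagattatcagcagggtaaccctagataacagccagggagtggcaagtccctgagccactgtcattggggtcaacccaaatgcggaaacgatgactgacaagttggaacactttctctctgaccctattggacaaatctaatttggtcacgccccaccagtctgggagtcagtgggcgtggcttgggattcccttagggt
Cox8b: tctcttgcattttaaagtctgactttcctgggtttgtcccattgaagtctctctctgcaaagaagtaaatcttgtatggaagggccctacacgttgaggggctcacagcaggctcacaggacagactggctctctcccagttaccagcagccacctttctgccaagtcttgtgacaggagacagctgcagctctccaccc
The capitals in Cycs and Atp5k, and the first run in Cox6a1, are the NRF1 letters, read on both strands at overlapping positions in Cox6a1 and Atp5k. The second run in Cox6a1 is the GABP motif on the other strand. The stretches of Cox7a1 and Cox8b hold none of the motifs, which says only that those letters are not in these windows. Cox6a1 encodes another subunit than these heart forms, so no heart form is set against its ubiquitous counterpart. A difference between heart and ubiquitous forms in their promoters was not tested.

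The NRF1 letters were in 16.1% of the 62 member windows and 2.71% of all 32851 windows, and the GABP letters in 24.2% and 8.86%. The YY1 letters were in 12.9% against 2.75%, the AhR letters in 12.9% against 5.07%, the SP1 letters in 16.1% against 11.4%, and those of the oestrogen-related receptors in 1.61% against 0.423%. The 10 genes with the NRF1 letters are Atp5g2, Atp5k, Atp5l, Cox6a1, Cycs, Ndufa6, Ndufa8, Sdhb, Uqcr11 and Uqcrc1. The AhR letters are in the windows of Atp5md, Ndufa3, Ndufa7, Ndufc2, Ndufv1, Sdha and Sdhb. At 1.5 µg/kg against control, the median log2 change was −0.24 over the 11 kept probe sets of genes with the NRF1 letters and −0.15 over the 52 of genes with a window that lacks them. For the AhR letters the medians were −0.08 over 7 probe sets and −0.17 over 56. With and without the letters they were −0.118 and −0.165 for GABP, −0.157 and −0.157 for YY1, and −0.118 and −0.158 for SP1. The only kept probe set with the letters of the oestrogen-related receptors was at −0.039. Between 6 and 1.5 µg/kg the medians with and without the NRF1 letters were 0.223 and 0.202, and for the AhR letters 0.169 and 0.21. These medians are descriptions of the windows at hand, and a match is no measured binding site. The 32851 windows were not matched to the members in base content or signal, so the shares are descriptions as well.

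All arrays had been scaled alike by the authors, with trimmed means of 500.28 to 500.341 and median signals of 171.0 to 210.0. The AhR targets Cyp1a1 and Cyp1b1 rose at each dose (limma, adjusted p under 0.05), Cyp1a1 by log2 1.76, 2.12 and 2.93. Heart muscle markers were abundant on every array, with a summed signal of 9 genes between 126698 and 188452. Some arrays stand apart. Array 3 at 1.5 µg/kg had the lowest score of heart muscle markers (−0.26 on the centred log2 scale) and the highest of liver markers (1.86), and controls 1, 2 and 6 and array 4 at 6 µg/kg had β-actin 3′ to middle log2 ratios of 0.896 or more, where all others had 0.61 or less. The mean 3′ to 5′ log2 ratio of β-actin and Gapdh was −0.0156, −0.0239 and −0.0338 on arrays 2 to 4 at 1.5 µg/kg, below the lowest control at 0.0216, and with this ratio as a covariate the median change of the members at that dose, described next, was −0.18. The summed signal of the 9 leukocyte markers on the array was 2188 to 2648 in controls and 3063 to 3610 over the TCDD arrays. Of 7 fibroblast markers 6, 6 and 7 were higher over the rising doses, with medians of 0.14, 0.08 and 0.15. The medians were 0.248, 0.088 and −0.098 for 4 smooth muscle markers and 0.165, −0.039 and −0.07 for 5 endothelial markers. For 3 kept erythroid markers they were 0.316, 0.031 and 0.202, and for 3 kept liver markers 0.405, 0.097 and 0.395. The 4 kept lung epithelium markers had medians of 0.541, 1.195 and 0.139, and 3 of 4 arrays at 3 µg/kg scored above every control. The part of these differences in the results that follow was not tested.

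The members were slightly lower than controls at 1.5 and 3 µg/kg and close to or slightly above them at 6 µg/kg, and no member passed the test against controls at any dose. In detail, 72 of 79 member probe sets had a lower mean log2 signal at 1.5 µg/kg, with a median change of −0.15, where 48.1% of all 8097 kept probe sets were lower and their median was 0.01. The count of members with an adjusted p under 0.05 (limma, Benjamini-Hochberg over all kept probe sets) was 0, where 0.21% of all probe sets passed, and the smallest adjusted p of a member was 0.169. With an unadjusted p under 0.05 there were 19 lower members and 0 higher, where 5.16% of all probe sets were lower and 7.45% higher by that rule. Against controls 5 to 8 alone 5 members passed, where 153 of all 8097 probe sets did, with 74 of 79 lower and a median of −0.19. Against controls 1 to 4 alone 0 passed, where 3 of all did, with 63 of 79 lower and a median of −0.12. Without array 3 of the dose the median was −0.10, and after quantile normalization it was −0.104 with 69 of 79 lower. The members are mostly bright, with 58 of 79 above the 90th percentile of their arrays. All probe sets are therefore no reference of like signal. In simulated data the test called 0% of 1.2-fold changes at this dose. A count of 0 members thus does not show that changes of this size are absent.

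At 3 µg/kg, 69 of 79 were lower, with a median of −0.09 beside 0.01 over all probe sets. None passed, where 0.0247% of all did, and 5 lower and 0 higher had an unadjusted p under 0.05, beside 2.36% lower and 3.36% higher of all. At 6 µg/kg, 53 of 79 were higher, with a median of 0.05 beside −0.001 over all. Again 0 passed, where 0.0741% of all did, and 4 higher and 0 lower had an unadjusted p under 0.05, beside 4.82% higher and 4.33% lower of all. The comparisons share their 8 controls, so the values of the doses are given side by side and no agreement between them is read. Against controls 1 to 4 alone and 5 to 8 alone, the medians were −0.03 and −0.12 at 3 µg/kg and 0.09 and 0.01 at 6 µg/kg. After quantile normalization the median at 3 µg/kg was −0.053, with 58 of 79 lower.

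The 3 doses can be set against each other without controls. In 45 of 79 member probe sets the dose means stood in the order 1.5 below 3 below 6 µg/kg, an order found in 21.6% of all probe sets. Between 6 and 1.5 µg/kg, 70 of 79 were higher at 6 µg/kg, with a median of 0.21 beside 0.00 over all, and 1 passed, Atp5l (described with complex V), where 0.346% of all did. An unadjusted p under 0.05 was reached by 31 higher and 0 lower members, beside 6.71% higher and 8.87% lower of all. Between 6 and 3 µg/kg, 65 were higher with a median of 0.14 and 0 passed, where 0.0371% of all did. Of these, 19 had an unadjusted p under 0.05, all higher, beside 5.43% higher and 6.21% lower of all. Between 3 and 1.5 µg/kg 0 members and 0.0% of all passed, and 1 member was higher and 0 lower with an unadjusted p under 0.05, beside 1.25% and 1.54% of all. The median of 0.04 there was −0.01 without array 3 of 1.5 µg/kg.

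A joint test of the doses gave 0 members, where 0.185% of all passed, and 16 with an unadjusted p under 0.05, beside 12.5% of all. The mean of the doses against control gave 0 members, where 0.0494% of all passed, with 68 of 79 lower. With an unadjusted p under 0.05 there were 3 lower and 0 higher members, beside 3.21% and 5.47% of all. A straight line over dose gave 0 members, where 0.0618% of all passed, and 0 with an unadjusted p under 0.05, beside 3.43% lower and 3.79% higher of all.

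**Figure D1:**
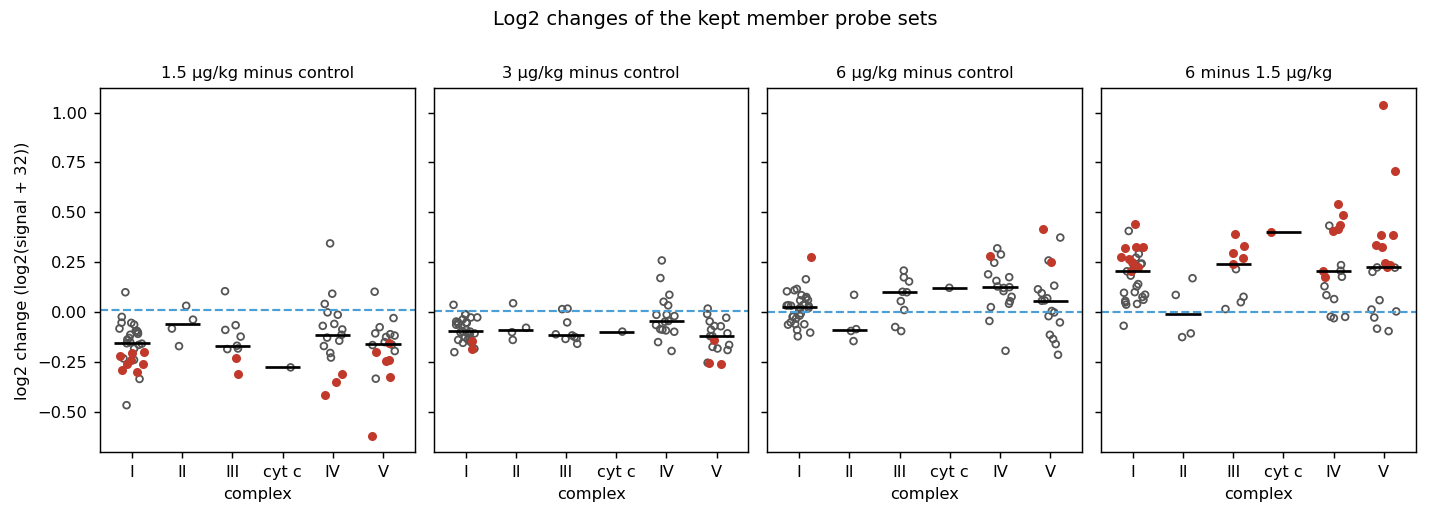
Log2 change of each of the 79 kept member probe sets by complex (x axis), in 4 comparisons; the black lines are medians of each complex, the dashed line the median of all 8097 probe sets, and filled red points have an unadjusted p under 0.05. Most members lie below the dashed line at 1.5 and 3 µg/kg, and 70 of 79 lie above 0 between 6 and 1.5 µg/kg.

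Each array was also given a score, the median over genes of the log2 signal after subtracting the gene's mean, with the brightest probe set of each gene. Over all 66 genes the 8 controls ran from −0.12 to 0.24 with a median of 0.04 and an SD of 0.12. The SD was 0.14, 0.03 and 0.09 at 1.5, 3 and 6 µg/kg (n = 4 each). The arrays at 1.5 µg/kg scored −0.15, −0.02, −0.27 and 0.04, those at 3 µg/kg −0.03, −0.10, −0.06 and −0.03, and those at 6 µg/kg 0.01, −0.02, 0.16 and 0.14. Every dose overlaps the controls. Control 6 scored highest and was the highest array for 19 of 66 genes, and array 3 at 1.5 µg/kg scored lowest and was the lowest array for 29.

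At 1.5 µg/kg complexes I, III, IV and V lay at similar distances below the controls and complex II lay closer. The mean score at 1.5 µg/kg lay below the control mean by 0.136 for complex I, 0.154 for complex III, 0.135 for complex IV and 0.153 for complex V, but by 0.061 for complex II. At 3 µg/kg the mean score of complex II lay below its control mean by 0.052 and that of complex IV by 0.057, and complex V had the lowest mean of the 5, at −0.10 ± 0.03 (SD, n = 4) against 0.05 ± 0.10 in controls (SD, n = 8). Of its 4 arrays 2 lay below every control, and the others overlapped controls 1 and 2, at −0.07 and −0.08. At 6 µg/kg complex III was at 0.13 ± 0.17 and complex IV at 0.10 ± 0.08, each with a control mean near 0.03, while complexes I and V lay above their control means by 0.014 and 0.041 and complex II below by 0.055. Without array 3, the distances at 1.5 µg/kg were 0.069, 0.036, 0.086, 0.072 and 0.098 for complexes I to V. The differences between complexes were not tested.

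**Figure D2:**
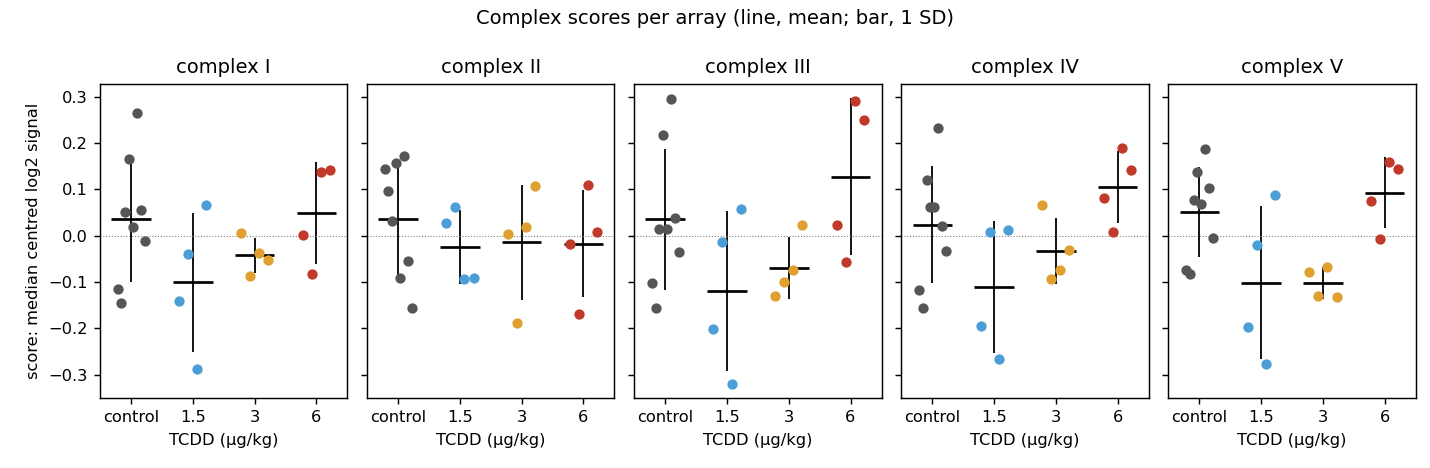
Score of each array (median centred log2 signal, y axis) for complexes I to V at each dose (x axis); each point is 1 array, the horizontal line the group mean and the vertical bar 1 SD. The array at 1.5 µg/kg with the lowest value in each of complexes I to V is array 3, and the controls spread over most of the range. In complex II it lies close to array 4 (−0.094 and −0.092).

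Complex I takes electrons from NADH and is the largest of the complexes. Of its 30 kept probe sets 29 were lower at 1.5 µg/kg, with a median of −0.16, and at 3 µg/kg 29 of 30 with −0.10, while 18 of 30 were higher at 6 µg/kg with 0.03. Ndufv2, an iron-sulfur subunit of the NADH-oxidizing end of the complex (chromosome 17, 66078795 to 66101559 of GRCm38.p6), had the smallest p at 1.5 µg/kg. The controls ran from 6926.5 to 8648 in MAS5 signal with a median of 8076. The 4 arrays at 1.5 µg/kg gave 6769, 6611, 6934 and 6623, those at 3 µg/kg 7096, 7137, 7305 and 6802, and those at 6 µg/kg 8144, 7752, 8220 and 7954. The values at 1.5 µg/kg sit at or just under the lowest control, those at 3 µg/kg among the lower controls with 1 array under them, and all 4 at 6 µg/kg lie above all 8 arrays of the lower doses. The log2 change was −0.22 ± 0.07 (SE; adjusted p = 0.178 by limma) at 1.5 µg/kg and −0.15 ± 0.07 (adjusted p = 0.854) at 3 µg/kg, and 0.25 ± 0.08 (adjusted p = 0.119) between 6 and 1.5 µg/kg. The first was −0.32 with an adjusted p of 0.011 against controls 5 to 8 alone, and −0.12 without passing the test against controls 1 to 4 alone.

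A much dimmer probe set of Ndufv2 gave 319 to 497 in controls, 292.5 to 432 at 1.5 µg/kg, 299 to 422 at 3 µg/kg and 484 to 518 at 6 µg/kg. Its change at 6 µg/kg was 0.28 ± 0.13 (adjusted p = 0.522), and the change became 0.46 with only controls 1 to 4 and 0.09 with only controls 5 to 8. Ndufv3, an accessory subunit of the same end, gave 1897, 1736, 1610 and 1945 at 1.5 µg/kg, where the lowest control was 1890 and the median 2069. Its change was −0.30 ± 0.11 (adjusted p = 0.266), and all 4 arrays at 3 µg/kg (1987 to 2264) lay above those of 1.5 µg/kg. Ndufv1, which binds NADH, had means of 12290 ± 1440 in controls (SD, n = 8) and 11800 ± 1140, 11520 ± 1200 and 12200 ± 1320 (SD, n = 4 each) over the doses, closer together than the spread within any group. Ndufs1, the largest iron-sulfur subunit (chromosome 1, 63143592 to 63176822), gave 4435 to 5006 at 3 µg/kg against 4870 to 6319 in controls, a change of −0.19 ± 0.08 (adjusted p = 0.822). Ndufb7 of the membrane arm gave 6949 to 8657 at 6 µg/kg against 6125 to 8415 in controls (0.16 ± 0.11, adjusted p = 0.647).

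The other 24 kept complex I probe sets ranged from −0.47 (Ndufb3) to 0.10 (Ndufa10) at 1.5 µg/kg, 23 of them lower. At 6 against 1.5 µg/kg 23 of 24 were higher, up to 0.41, again Ndufb3, whose arrays spread from 1659 to 4802 over the series. The accessory subunits Ndufa8 (3807 ± 579 in controls, 3095 ± 386 at 1.5 µg/kg, 3917 ± 762 at 6 µg/kg) and Ndufb9 (6176 ± 613, 5372 ± 640 and 6483 ± 272) are examples.

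Complex II, the succinate dehydrogenase that also serves the citric acid cycle, had medians of −0.06, −0.09 and −0.09 at the 3 doses. Between 6 and 1.5 µg/kg 2 of its 4 genes were higher and 2 lower. Sdha, the flavoprotein that oxidizes succinate, gave 1148, 962, 1149 and 983 at 1.5 µg/kg and 1139, 1146, 1274 and 955 at 6 µg/kg against 1084 to 1381 in controls. Array values at every dose lay on both sides of the lowest control. Its changes were −0.17 ± 0.09 (adjusted p = 0.467) at 1.5 µg/kg and −0.14 ± 0.09 (adjusted p = 0.928) at 3 µg/kg. Sdhb, the iron-sulfur subunit, had means of 8719 ± 929 in controls and 8236 ± 1030, 8247 ± 907 and 9247 ± 961 at 1.5, 3 and 6 µg/kg. The membrane anchors Sdhc and Sdhd had means of 6679 ± 667 and 8808 ± 1050 in controls and 6248 ± 656 and 7951 ± 949 at 6 µg/kg. Their changes at 6 µg/kg were −0.10 ± 0.09 (adjusted p = 0.758) for Sdhc and −0.15 ± 0.10 (adjusted p = 0.653) for Sdhd. Without array 2 of that dose they were −0.03 and −0.06, and that of Sdhc became −0.20 with only controls 1 to 4 and 0.01 with only controls 5 to 8.

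Complex III passes electrons from ubiquinol to cytochrome c. Of its 9 probe sets 8 were lower at 1.5 µg/kg with a median of −0.17, at 3 µg/kg 7 with −0.12, and at 6 µg/kg 7 were higher with 0.10. All 9 were higher at 6 than at 1.5 µg/kg, and 5 of them had an unadjusted p under 0.05. Uqcrh, the hinge protein of the cytochrome c docking site (chromosome 4, 116066965 to 116075070), gave 8790.5, 9515, 7308 and 9018 at 1.5 µg/kg, 8667.5, 8611, 9180 and 9769 at 3 µg/kg and 9323, 9176, 12506.5 and 12919.5 at 6 µg/kg, with controls from 9079 to 12233. Arrays 3 and 4 at 6 µg/kg exceed every control, array 4 being the one of raised β-actin ratio, and 3 of 4 at 1.5 µg/kg lie under every control. The change was −0.23 ± 0.10 (adjusted p = 0.367) at 1.5 µg/kg and 0.33 ± 0.12 (adjusted p = 0.185) between 6 and 1.5 µg/kg.

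Uqcr11, a small subunit, gave 6230, 6525, 7254 and 9002 at 1.5 µg/kg against 7015 to 11049 in controls (−0.31 ± 0.12, adjusted p = 0.264). Uqcrb, which lies at the ubiquinone site, gave 6537, 6255, 7902 and 7585.5 at 6 µg/kg and 6441, 5105, 4451 and 5634 at 1.5 µg/kg, a difference of 0.39 ± 0.12 (adjusted p = 0.126), with controls from 4893 to 7536. Of the core proteins, Uqcrc2 was at 7529 ± 567 at 6 µg/kg and 6730 ± 1040 in controls, a change of 0.17 ± 0.11 (adjusted p = 0.623) that became 0.36 with only controls 1 to 4 and −0.01 with only controls 5 to 8, and Uqcrc1 at 8577 ± 1670 and 8962 ± 1020. Cyc1, the haem subunit that faces cytochrome c, ran from 17011 to 19323 in controls in its brighter probe set, with means of 17480 ± 2020, 16600 ± 987 and 18390 ± 1650 over the doses. Its change at 3 µg/kg was −0.14 ± 0.07 (adjusted p = 0.887), and the dimmer probe set gave 2290 ± 340 in controls and 2296 ± 209 at that dose. The remaining Uqcr10 and Uqcrq were at −0.19 and −0.17 at 1.5 µg/kg and 0.05 and 0.10 at 6 µg/kg.

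Cycs encodes cytochrome c, the soluble carrier to complex IV, which also starts apoptosis when it leaves the mitochondrion (chromosome 6, 50562563 to 50566569). It gave 1344, 1170, 1351 and 1187 at 1.5 µg/kg, 1706.5, 1418.5, 1371 and 1264 at 3 µg/kg and 2003, 2194, 1506 and 1179 at 6 µg/kg, against 1127 to 2001 in controls with a median of 1568. The arrays at 1.5 µg/kg lie together in the lower part of the control range, and those at 6 µg/kg span more than it. The change was −0.28 ± 0.15 (adjusted p = 0.442) at 1.5 µg/kg and 0.40 ± 0.17 (adjusted p = 0.253) between 6 and 1.5 µg/kg. The lowest value at 6 µg/kg is that of array 4, whose β-actin 3′ to middle ratio is raised. Leaving out it and the 3 controls of raised ratio, the latter difference was 0.56 with an adjusted p of 0.0334. That set of arrays was chosen after seeing the data, and its removal takes away the lowest value of the dose.

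Complex IV, cytochrome c oxidase, had medians of −0.11, −0.05 and 0.12 over the doses, with 14 of 17 probe sets lower at 1.5 µg/kg, 12 lower at 3 µg/kg and 15 higher at 6 µg/kg. Its lowest changes at 1.5 µg/kg belonged to Cox8b and Cox7a1, heart and muscle forms that skeletal muscle and brown fat also use. The summed signal of the 6 skeletal muscle markers on the array was 3313 to 4114 at that dose and 3943 to 5022 in controls. Of the 3 kept ones (Acta1, Ckm and Mylpf) 1 was higher, with a median change of −0.30. Mylpf had median signals of 132.3 in controls and 156.1 at that dose, and Myh3, Myh8 and Tnnt3 lay below the filter. For the 6 brown fat markers the sum was 703 to 914 against 774 to 1437. Of the 3 kept ones (Cidea, Fabp4 and Ppargc1a) 1 was higher, with a median of −0.23. Ucp1, which defines brown fat, lay below the filter, as did Adipoq and Elovl3. It was not tested if heart cells themselves express these markers. The 9 heart muscle markers had a median of −0.01 there. None of these markers passed the test, and their part in the values of these forms was not tested. Cox8b, the heart form of subunit VIII (chromosome 7, 140898942 to 140900446), gave 397.5, 455, 318 and 458 at 1.5 µg/kg in the probe set with the smaller p, 572, 502, 469.5 and 428 at 3 µg/kg and 580, 566, 670 and 596 at 6 µg/kg. Controls ran from 424 to 757 with a median of 541. All 4 arrays at 6 µg/kg lie above all 4 at 1.5 µg/kg, and both doses overlap the controls. The change was −0.41 ± 0.13 (adjusted p = 0.203) at 1.5 µg/kg and 0.54 ± 0.15 (adjusted p = 0.0954) between 6 and 1.5 µg/kg.

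The brighter probe set of Cox8b gave 2484 ± 414 at 1.5 µg/kg and 3181 ± 543 in controls (−0.35 ± 0.13, adjusted p = 0.250). Cox7a1, the heart form of subunit VIIa (chromosome 7, 30184171 to 30186030), gave 1594, 1634, 1407 and 1878 at 1.5 µg/kg and 2184, 2152, 2125 and 2359 at 6 µg/kg, with controls from 1446 to 2825. The change was −0.31 ± 0.13 (adjusted p = 0.309) at 1.5 µg/kg. Against controls 5 to 8 alone, this probe set of Cox7a1 and the first one of Cox8b were at −0.51 and −0.64 with adjusted p-values of 0.0198 and 0.011. Against controls 1 to 4 alone they were at −0.11 and −0.19, and neither passed. The ubiquitous Cox7a2 was at −0.13 ± 0.08 (adjusted p = 0.519), or −0.06 without array 3 of that dose, and Cox6a1 had means of 12300 ± 913 in controls and 11720 ± 1010, 11510 ± 259 and 13220 ± 1010 over the doses. The heart form Cox6a2 had 15060 ± 2220 in controls and 14000 ± 2810 at 1.5 µg/kg, a change of −0.11 ± 0.12 (adjusted p = 0.745), close to the median of the complex. The difference between heart and ubiquitous forms was not tested, and no kept probe set measures the ubiquitous Cox8a.

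Cox7b, a ubiquitous subunit (chromosome X, 106015700 to 106022450), was the complex IV probe set with an unadjusted p under 0.05 at 6 µg/kg against control. It gave 8302.5, 9088, 10037 and 6123 at 6 µg/kg, 6846, 5712, 4787 and 6400 at 1.5 µg/kg and 6568, 5744, 5104 and 6397 at 3 µg/kg, with controls from 5120 to 8146. Arrays 1 to 3 at 6 µg/kg exceed every control and array 4 does not. The change was 0.28 ± 0.13 (adjusted p = 0.522) at 6 µg/kg and 0.49 ± 0.15 (adjusted p = 0.116) between 6 and 1.5 µg/kg. That difference was 0.63 with an adjusted p of 0.0157 once the 4 arrays of raised β-actin ratio were left out, and 0.63 with an adjusted p of 0.049 without array 4 of 6 µg/kg alone. The former set was chosen after seeing the data, and both settings take away the lowest array of the dose. With array weights, which leave no array out, the difference was 0.53 (adjusted p = 0.0359 by limma).

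Cox6c gave 11586, 13827, 11570 and 11471 at 6 µg/kg against 9042 to 12200 in controls (0.17 ± 0.09, adjusted p = 0.551). Cox4i1, the regulatory subunit IV, gave 585 to 873 in controls and 530.8 to 756.5 at 1.5 µg/kg in the brighter of its probe sets, with 0.42 ± 0.14 (adjusted p = 0.149) between 6 and 1.5 µg/kg. Its other probe set is close to background, with 84.7 to 219.7 over all arrays. Cox5b, which sits by the catalytic core, had 9894 ± 1200 in controls and 9331 ± 1420, 9262 ± 314 and 10140 ± 881 over the doses. The other 6 kept probe sets stand for Cox6b1, the testis forms Cox6b2 and Cox8c, and Cox7a2l, a relative of subunit VIIa that joins complexes III and IV into supercomplexes. They ranged from −0.17 to 0.34 at 1.5 µg/kg, 3 lower and 3 higher.

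**Figure D3:**
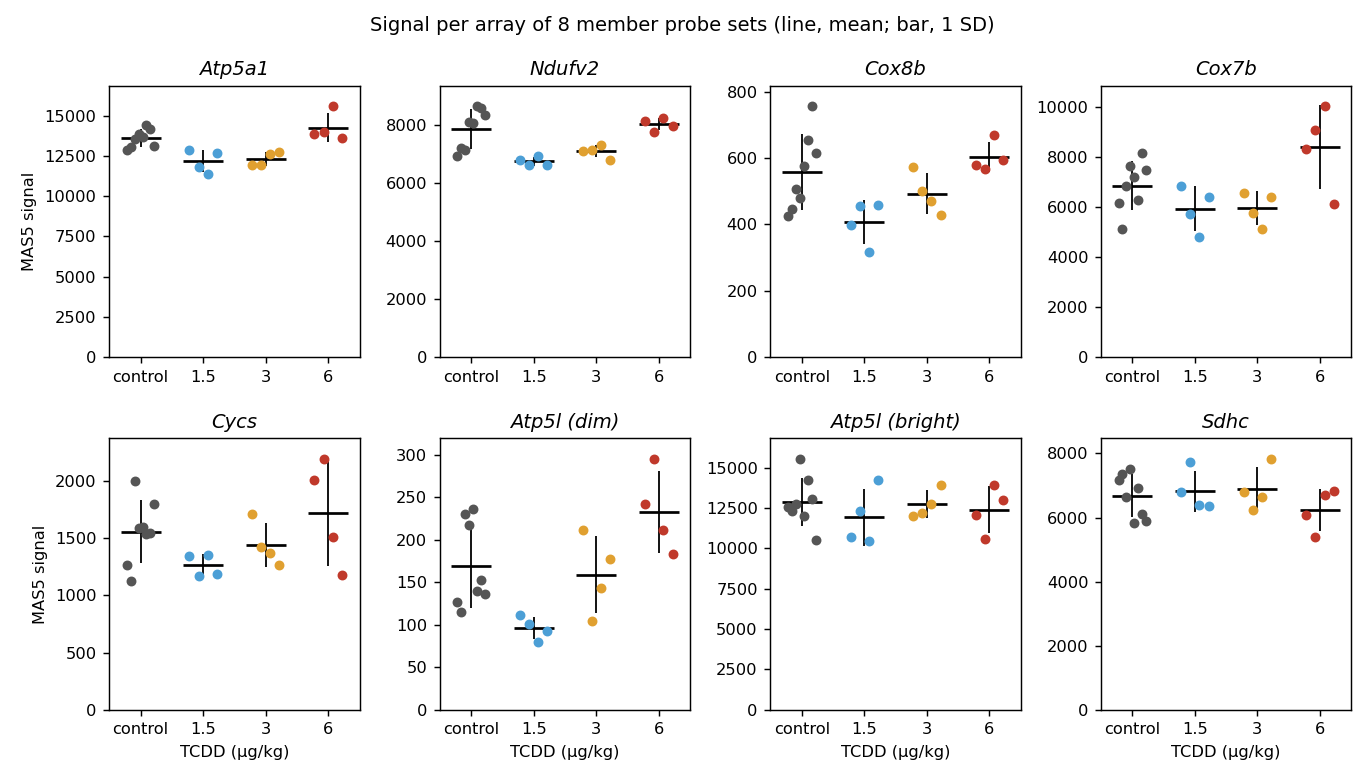
MAS5 signal (y axis, from 0) of 8 member probe sets on each array at each dose (x axis); each point is 1 array, the horizontal line the group mean and the bar 1 SD. The arrays at 6 µg/kg lie above those at 1.5 µg/kg in Atp5a1, Ndufv2, Cox8b and the dim Atp5l, and not in Sdhc or the bright Atp5l.

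Complex V, the ATP synthase, had 17 of 18 probe sets lower at 1.5 µg/kg and 17 of 18 at 3 µg/kg, with medians of −0.16 and −0.12, and 11 higher at 6 µg/kg with 0.06. Atp5a1, the alpha subunit of the catalytic head, was the member whose arrays lay below every control at both lower doses. It gave 12875, 11802.5, 11396 and 12657 at 1.5 µg/kg and 11923, 11937, 12602 and 12766.5 at 3 µg/kg, all below the lowest of the 8 controls, which ran from 12884 to 14411; the highest array at 1.5 µg/kg lies just under that control. At 6 µg/kg it gave 13852, 13974, 15608 and 13609, above all 8 arrays of the lower doses. Changes were small and did not pass: −0.16 ± 0.06 (adjusted p = 0.258) and −0.14 ± 0.06 (adjusted p = 0.779) at the lower doses, and 0.23 ± 0.07 (adjusted p = 0.111) between 6 and 1.5 µg/kg. At 1.5 µg/kg 2 members, Atp5a1 and a probe set of Atp5l, lay below all controls on every array, where 0.395% of all probe sets did, and 0 lay above all controls, where 1.06% did. At 3 µg/kg 1 member, Atp5a1, lay below all controls and 0 above, where 0.222% and 0.321% of all did, and at 6 µg/kg 0 did either, beside 0.358% below and 0.494% above. Between 6 and 1.5 µg/kg 12 members had groups that did not overlap, all higher at 6 µg/kg, beside 3.59% higher and 5.24% lower of all. Between 6 and 3 µg/kg there were 11, also higher, beside 3.58% higher and 4.12% lower, and between 3 and 1.5 µg/kg 1, the higher Ndufv3, beside 0.865% higher and 1.4% lower.

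Atp5c1, the gamma subunit that turns inside the head (chromosome 2, 10056030 to 10080510), gave 6414, 4733, 5976 and 5747 at 1.5 µg/kg and 6367, 5144.5, 6441 and 4633 at 3 µg/kg, against 6282 to 7336 in controls. Of these, 1 array at 1.5 µg/kg and 2 at 3 µg/kg reach into the control range. The changes were −0.24 ± 0.09 (adjusted p = 0.260) and −0.26 ± 0.09 (adjusted p = 0.707), the latter the smallest p of a member at 3 µg/kg. Its second probe set had 11470 ± 1340 in controls and 10260 ± 184, 10480 ± 523 and 12170 ± 429 over the doses. Atp5k, the e subunit of the membrane part, gave 457, 422, 451.5 and 537 at 1.5 µg/kg, where 3 of 4 arrays lay under the lowest control of 508.5 and the highest control was 720 (−0.33 ± 0.11, adjusted p = 0.212). It gave 665, 466.5, 475 and 476 at 3 µg/kg and 609.5, 595, 550 and 729 at 6 µg/kg.

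Atp5l, the g subunit of the membrane part (chromosome 9, 44913248 to 44920742), has 2 kept probe sets that disagree. The dim one, whose probes can match related sequences by its suffix, gave 111, 100, 79.5 and 92.8 at 1.5 µg/kg, 211, 105, 143 and 177 at 3 µg/kg and 242, 295, 211 and 183 at 6 µg/kg, with controls from 114.4 to 236.5. It rose between 1.5 and 6 µg/kg by 1.04 ± 0.22 on the log2(signal + 32) scale (adjusted p = 0.0408 by limma), in 4 of 4 arrays of 6 µg/kg above 4 of 4 of 1.5 µg/kg. Against control it was at −0.62 ± 0.19 (adjusted p = 0.169) at 1.5 µg/kg and 0.42 ± 0.19 (adjusted p = 0.516) at 6 µg/kg. The call between doses ended without any of the 4 arrays of 1.5 µg/kg or without array 1, 2 or 3 of 6 µg/kg (adjusted p = 0.0554 to 0.112), with changes of 0.93 to 1.09. It also ended with no filter (1.04, adjusted p = 0.0706) and with the 3′ to 5′ ratio as covariate (1.09, adjusted p = 0.0787), and the 60th percentile filter leaves this probe set out. The bright probe set had means of 11942 ± 1760 at 1.5 µg/kg and 12409 ± 1450 at 6 µg/kg, with 12879 ± 1500 in controls.

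The genes of the membrane ring, Atp5g1 and Atp5g2, encode the same mature c subunit. Atp5g2 (chromosome 15, 102662868 to 102671047) gave 1181, 1378, 1231 and 1582 at 1.5 µg/kg against 1285 to 1748 in controls (−0.24 ± 0.10, adjusted p = 0.300), and its means at 3 and 6 µg/kg were 1543 ± 194 and 1566 ± 104 beside 1594 ± 158 in controls. Atp5g1 was near background, with 130 to 157 in controls and 146 to 264 at 6 µg/kg. Atp5md, a small membrane subunit, gave 16820, 15194, 21365 and 20928 at 6 µg/kg against 12466 to 17866 in controls (0.25 ± 0.12, adjusted p = 0.537). Its arrays 3 and 4 lay above every control, array 4 being the one of raised β-actin ratio. A probe set of Atp5d, the delta subunit, had 1810 ± 283 in controls and 1596 ± 57.2, 1645 ± 70.5 and 1603 ± 142 over the doses. Its 4 probe sets disagreed in sign at each dose, from −0.20 to 0.10 at 1.5 µg/kg. The other 9 kept complex V probe sets (Atp5d, Atp5e, Atp5j, Atp5l, Atp5mpl, Atp5o and Atp5pb) ran from −0.33 to 0.10 at 1.5 µg/kg, 8 of them lower. Atp5pb, the b subunit of the stalk, lies near background at 85.8 to 314.0 and differed most among them between 6 and 1.5 µg/kg, at 0.71 ± 0.27 (adjusted p = 0.207).

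**Figure D4:**
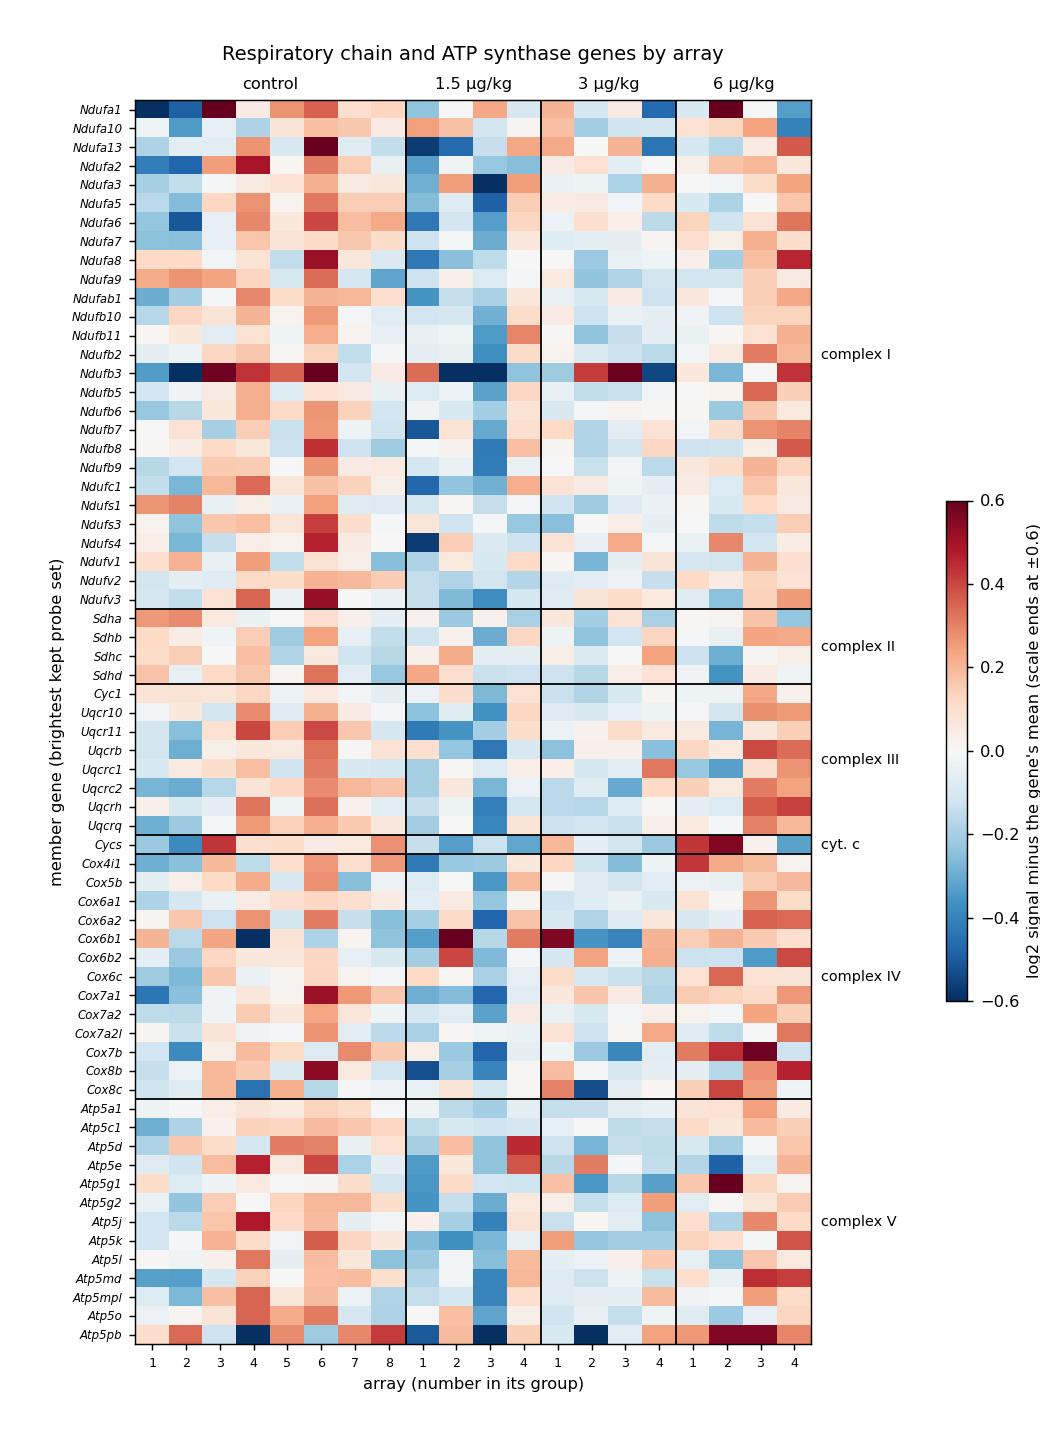
Log2 signal of 66 member genes (rows, brightest kept probe set, sorted by complex) on each of 20 arrays (columns, by dose), minus the mean of the gene over all arrays; red is above and blue below the mean, and the colour ends at ±0.6. Whole columns share a colour, blue in array 3 at 1.5 µg/kg and red in control 6, across complexes I, III, IV and V. Control 6 also has the highest complex II score of all arrays, 0.171.

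The controls themselves were numbered 1 to 8, and the design text speaks of 4 replicates of each group, so the first and last 4 were compared. Of the members 53 of 79 were lower in controls 1 to 4, with a median of −0.10, and 0 passed, where 1.57% of all probe sets did. An unadjusted p under 0.05 was reached by 13 lower and 2 higher members, beside 7.36% lower and 7.52% higher of all. Groups did not overlap for 8 lower members and 1 higher, beside 3.73% and 4.3% of all. The member with the smallest p was Cox8b, with an adjusted p of 0.0598. All 4 complex II genes went the other way, higher in controls 1 to 4 with a median of 0.12. Leaving out controls 1, 2 and 6 and array 4 of 6 µg/kg for their β-actin ratios turned the median over members to 0.09.

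Related gene lists were set beside the members by the brightest probe set of each gene, and 0 of their genes passed at any dose. Of 59 genes of the mitochondrial ribosome 49 were lower at 1.5 µg/kg with a median of −0.15, and 50 at 3 µg/kg with −0.09, beside 62 and 60 of 66 member genes with −0.15 and −0.09. Mrps22 had the smallest p there (−0.40 ± 0.10, adjusted p = 0.0955 at 1.5 µg/kg). All 8 carriers and channels of the inner and outer membrane were lower at both doses, with medians of −0.26 and −0.18, for example the carnitine carrier Slc25a20 (−0.25 ± 0.10, adjusted p = 0.316) and the adenine nucleotide carrier Slc25a5 (−0.28 ± 0.13, adjusted p = 0.390). Import genes were lower in 14 of 16 at each of these doses, and assembly factors in 13 and 14 of 17, with Coa3 of complex IV at −0.32 ± 0.09 (adjusted p = 0.126). Citric acid cycle genes were lower in 10 and 13 of 15, with smaller medians of −0.08 and −0.04.

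At 6 µg/kg the members had 44 of 66 genes higher with a median of 0.05, while the mitochondrial ribosome had 33 of 59 lower (−0.01) and the citric acid cycle 9 of 15 lower (−0.04). The cytosolic ribosome, other small and abundant transcripts, had 18 of 24 genes lower at 1.5 µg/kg (−0.07), 17 lower at 3 µg/kg (−0.05) and 14 higher at 6 µg/kg (0.04). Of 12 nuclear regulators 8 were higher at 1.5 µg/kg (0.09) and 7 at 3 µg/kg (0.09), where 4205 and 4147 of all 8097 probe sets were. At 6 µg/kg 9 were lower (−0.09), beside 50.3% of all. Their smallest p at 1.5 µg/kg belonged to Esrra, the oestrogen-related receptor alpha (0.31 ± 0.11, adjusted p = 0.221). Hcfc1 was at 0.23 ± 0.09 (adjusted p = 0.256) and Tfb2m, lower, at −0.35 ± 0.16 (adjusted p = 0.364). Of 9 heart muscle markers 4, 0 and 8 were higher over the rising doses, and all 8 kept leukocyte markers were higher at each dose. The part of these in the members' values was not tested.

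**Figure D5:**
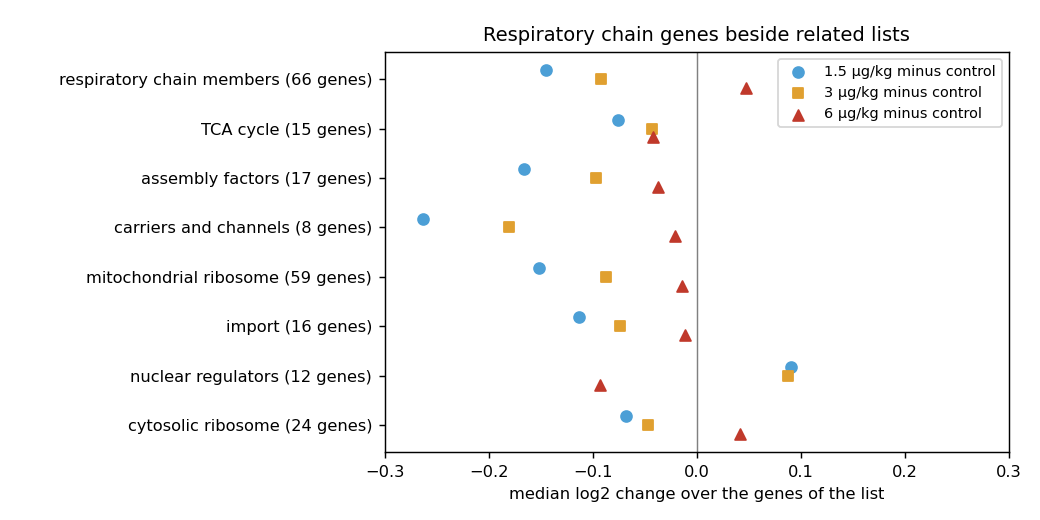
Median log2 change against control (x axis) over the genes of the respiratory chain and of 7 related lists (rows, number of kept genes in brackets) at 1.5 (circles), 3 (squares) and 6 µg/kg (triangles). The members are at −0.15, −0.09 and 0.05, and the nuclear regulators alone among the lists lie above 0 at 1.5 and 3 µg/kg.

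The 18 member probe sets below the filter had median signals of 5.95 to 84.7 and at most 134.1 on any array, so no changes are given for them. They leave 5 genes unmeasured: Ndufa12, Ndufc2, Cox5a, Cox8a and Atp5j2. The other 10 genes with such a probe set, among them Cox6c, Atp5g2 and Ndufb7, have a kept one as well. Of the 79 kept probe sets, 58 lay above the 90th percentile of their arrays. In 27 the name carries an extra letter (f, g, i, r or s), and only some of these letters mark probes shared with other sequences. Of the 58 bright ones 56 were lower at 1.5 µg/kg, with a median of −0.15. A further 10 probe sets with several symbols, such as those of Cox7c with a pseudogene, were left out.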

How the data were processed

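Per the labels' protocols, total RNA was isolated with Trizol from whole hearts, made into cDNA and labelled as cRNA, and hybridised to 1-colour arrays. The authors deposited 1 intensity value per probe set, the MAS5 signal on a linear scale, per the submitters' processing notes; its version is not given in the sources used here. Signals were brought to a 2% trimmed mean of 500 per array and analysed as log2(signal + 32), so fold changes of dim probe sets are understated. A probe set was kept if 4 or more arrays reached their own 40th percentile, which left 8097 of 12422 (66 array controls left out).

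Linear models were fitted over all 20 arrays with limma 3.58.1 in R 4.3.3 (lmFit, contrasts.fit, eBayes with an intensity trend). All tests are two-sided, with Benjamini-Hochberg adjustment over all kept probe sets in each comparison. The fit was tested on simulated data in which 200 probe sets were changed at 1 dose. Of those changed 1.2-fold, 0%, 0.5% and 0% were called at 1.5, 3 and 6 µg/kg against control. Between 6 and 1.5 µg/kg it was 0%. Of those changed 1.5-fold, 61%, 55%, 62.5% and 38% were called in the same comparisons. A count of 0 members therefore cannot show that changes of 1.2-fold or less are absent. The number of arrays limits the precision. Numbers with "±" are SD of signals or SE of log2 changes.

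Members and lists were chosen with earlier results of these data known. Probe sets described singly are any member with an adjusted p under 0.05, the 2 smallest p of each complex at each dose, the smallest between the control sets, and a fixed list of core subunits and isoforms, with up to 3 genes by p for each related list. Of that list, Ndufa4, Uqcrfs1, Cox4i2, Atp5b and Atp5g3 were not analysed here. Symbols came from the platform annotation, and all 97 members were found in the RefSeq table of GRCm38.p6, which gave gene locations and promoter windows. Locations of the probes were not used.

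Same-numbered arrays of different groups did not deviate together: 24 correlations ran from −0.222 to 0.21 with a median of −0.009, so the numbers were not used as pairs. Alternatives were other normalizations, pseudocounts of 1 and 100, other filters, either set of controls, the replicate block, a 3′ to 5′ covariate, array weights and leaving out each array. Leaving out 4 arrays by their β-actin ratio, and leave-one-out of the complex scores, were chosen after seeing the data.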

Additional observations from a re-analysis of the deposited data

Results flagged for a closer look

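Of 176 checks of 4 or 8 arrays for a value far from the rest of its group, 2 passed, where chance gives about 5% of groups. Cox6c on array 2 at 6 µg/kg was at 13826.7 and Atp5k on array 1 at 3 µg/kg at 664.6, each above the other 3 arrays of its group. The dim probe set of Atp5l differed between the effects of 6 and 1.5 µg/kg, by a log2 change of 1.04 (adjusted p = 0.0408 by limma).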

How the results depend on the processing

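Over the alternatives run, 0 members passed against control at 3 or 6 µg/kg or for the mean of the doses, and the median over members stayed negative at 1.5 and 3 µg/kg (−0.20 to −0.10 and −0.12 to −0.03) and positive at 6 µg/kg (0.01 to 0.09). Against controls 5 to 8 alone, 5 members passed at 1.5 µg/kg, where 153 of all 8097 probe sets did, and 6 in the joint test. With these controls Sdhc and Uqcrc2 turned to 0.011 and −0.008 at 6 µg/kg. The joint test gave 2 with array weights and 2 without the arrays of raised β-actin ratio. The line over dose gave 4 members and a median of 0.046 per µg/kg on TCDD arrays alone. Between 6 and 1.5 µg/kg the count of 1 became 0 with no filter, 0 with the 60th percentile filter, 0 with the 3′ to 5′ ratio as covariate, 2 with array weights and 3 without the arrays of raised ratio, and 0 to 2 when single arrays were left out. Between 6 and 3 µg/kg it was 1 with array weights and 1 without those arrays. Between the control sets it was 1 after quantile normalization, 1 with the 60th percentile filter, 10 with array weights, 0 to 3 when single arrays were left out, and the median turned to 0.088 without the arrays of raised ratio. Counts over all probe sets are not given for the other settings of this section. The member counts there are therefore not read as a result about the members. The cause of these changes was not tested.

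At 1.5 µg/kg the median of −0.152 was −0.102 without array 3 of that dose. With the replicate block, which drops controls 5 to 8, medians were −0.12, −0.028 and 0.088 at the 3 doses, and the count of members past the threshold was 1 between 6 and 1.5 µg/kg and 0 in the others fitted. For the control sets it could not be fitted, since numbers 5 to 8 occur only in controls. Signals near background, such as those of the dim Atp5l, Atp5pb and Atp5g1 probe sets, limit what their changes can show.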
